A study of Mus musculus with 75 samples.

Results

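Loss of the retinoid X receptor alpha gene (Rxrα-KO) was compared with loss of the retinoic acid receptor alpha gene (Rarα-KO) across all genes in mouse E14 embryonic stem cells, a line derived from a male embryo. The comparison rested on 4 RNA-seq libraries, 2 of each knockout, of the 75 samples in the series. They belong to a knockout table of 8 libraries with 2 of each genotype: the control WT (RARX), the single knockouts and RARX-DKO, in which both receptor genes are targeted, and all 8 gave the estimate of the spread. Every group had been withdrawn from LIF and the 2 inhibitors of the naive-state medium (2i) and held in 2 µM retinoic acid (RA) for 24 h, so no library shows a level before RA. The series calls its replicates biological, but neither separate cultures nor the number of clones per genotype are given, and p-values here measure the spread between these libraries only. A further 6 libraries of cells overexpressing vector (V-OE), Rarα (Rarα-OE) or Rxrα (Rxrα-OE), 2 each under the same RA treatment, served as an independent readout.

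RA enters the nucleus and binds retinoic acid receptors (RARs), which sit on DNA as heterodimers with retinoid X receptors (RXRs). The pair recognises direct repeats of a short half-site, and the ligand exchanges corepressors for coactivators. RXRs also pair with many other nuclear receptors, so the 2 proteins do not have the same partners. In embryonic stem cells RA leads out of pluripotency, switches on Hox and Cdx genes, and induces its own degrading enzymes of the CYP26 family as well as the receptor gene Rarb.

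The classical RA response elements of Cyp26a1 and Rarb are shown because the former differed between the knockouts and the latter did not pass the test. Both promoters run from 250 bases before to 50 after the start of the gene, from RefSeq on GRCm38.p6, and the capitals mark half-sites (AGGTCA or GGGTCA, with T allowed for the G before TCA, read on both strands) in direct repeat with 5 bases between them, a spacing called DR5. The Cyp26a1 promoter lies at chr19:37697558-37697857 on the plus strand, with the DR5 read on the opposite strand, and that of Rarb at chr14:16575427-16575726 on the minus strand.
Cyp26a1: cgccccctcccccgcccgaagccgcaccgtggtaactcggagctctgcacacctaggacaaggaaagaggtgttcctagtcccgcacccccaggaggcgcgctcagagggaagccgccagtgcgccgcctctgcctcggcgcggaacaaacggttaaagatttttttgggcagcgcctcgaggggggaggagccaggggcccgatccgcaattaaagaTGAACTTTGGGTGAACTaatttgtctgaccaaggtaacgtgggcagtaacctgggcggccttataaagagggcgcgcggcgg
Rarb: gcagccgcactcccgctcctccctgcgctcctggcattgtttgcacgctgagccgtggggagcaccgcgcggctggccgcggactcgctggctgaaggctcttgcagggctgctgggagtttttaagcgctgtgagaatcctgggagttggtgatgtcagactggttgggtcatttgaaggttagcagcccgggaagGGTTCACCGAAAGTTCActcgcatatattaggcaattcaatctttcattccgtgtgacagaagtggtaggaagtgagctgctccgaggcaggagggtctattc
Of 27025 genes with a RefSeq promoter of this length, 31 held a DR5 (0.115%). Among the 11136 tested genes with such a promoter 5 did (0.0449%), namely Cyp26a1, Rarb, Blvrb, Cfap45 and Syndig1, and of these Cyp26a1 alone was called between the knockouts. A DR2 was found in 0.311% of all promoters and 0.126% of those of tested genes, and a DR1 in 0.263% and 0.296%. Among called genes a DR2 stood in the promoters of Slc7a7, Ano1 and Tinagl1 and a DR1 in those of Ctcflos, Phactr2 and Sec31b, all named for the match alone.

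Each library held 7408691 to 13052102 counts over 52535 genes. TMM factors, which scale the libraries to each other, were 0.955 and 0.956 in Rxrα-KO against 1.01 and 1.05 in Rarα-KO. At an equal depth of 7408691 counts, 21970 and 22132 genes would have had a count in Rxrα-KO, fewer than the 22667 and 22964 of Rarα-KO, with 22463 and 22396 in WT (RARX). Rarα-KO replicate 2 stood closer to RARX-DKO replicate 1, with a variance of 5.03 times counting error between them, than any 2 libraries of 1 group did (8.0 to 14.2 times). The number of calls and the calls of most named genes are therefore given with and without Rarα-KO replicate 2. Comparisons with WT (RARX) and RARX-DKO, abundance, chromosome stretches and shares in the overexpression libraries rest on all 8 knockout libraries only. Chromosome Y gave the plainest mismatch between the lines: Eif2s3y stood at 61 and 67.6 CPM (counts scaled to equal library size) in Rxrα-KO and at 0 in all 4 libraries of Rarα-KO and RARX-DKO, at least 397-fold higher against a floor of 3 counts over the Rarα-KO group. Ddx3y, Uty, Uba1y and Zfy1 were likewise at 0 there, with bounds of 337, 108, 199 and 18.2. The knockouts thus differed in transcripts of chromosome Y beside the targeted gene, and the part of these in the other differences was not tested.

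Rara followed the labels in every group, and Rxra did so only in part. Rara (chromosome 11, 98927818 to 98974942, plus strand) stood at 5.35 and 4.37 CPM in the Rarα-KO libraries and at 99.3 and 83.2 CPM in Rxrα-KO, beside 100.1 and 109 in WT (RARX) and 5.57 and 6.53 in RARX-DKO. Its log2 fold change, always given here as Rxrα-KO minus Rarα-KO with its standard error, was 4.23 ± 0.20 (adjusted p = 1.3e-07). Rxra (chromosome 2, 27676440 to 27762957, plus strand) was at 42.2 and 48.6 CPM in Rarα-KO and at 18.4 and 16.1 CPM in Rxrα-KO, beside 38.2 and 46 in WT (RARX) and 13.6 and 27.6 in RARX-DKO, so that a transcript remained in every Rxrα-KO library. The difference of -1.40 ± 0.27 (adjusted p = 0.0129) lost its call without Rarα-KO replicate 2 (adjusted p = 0.111) or Rxrα-KO replicate 2 (adjusted p = 0.0864). In RARX-DKO replicate 2 Rxra stood above both Rxrα-KO libraries, and it was not called between RARX-DKO and Rarα-KO. The deleted part of neither gene is given, so these counts cannot show that the remaining Rxra transcript codes for a receptor. Rarg, the other RAR abundant in these cells, was at 382 and 310.2 CPM in Rarα-KO and 434 and 360.3 CPM in Rxrα-KO (0.20 ± 0.15, adjusted p = 0.482).

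Of 16445 genes tested, 885 (5.38%) differed between the knockouts at an adjusted p under 0.05. In Rxrα-KO 360 were higher (2.19%) and 525 lower (3.19%), so 40.7% of the calls were higher, and 585 differed by 2-fold or more (182 higher, 403 lower). The median over all tested genes was 0.01. Scaling by library totals alone moved that median to -0.10 and the split to 254 higher and 731 lower (25.8% higher). The count fell to 111 without Rarα-KO replicate 2 (39 higher, 72 lower) and lay between 415 and 1391 with any other library left out. Of 90 called genes named here, 29 kept the call whichever library was left out. Those lost numbered 22 and 23 without WT (RARX) replicate 1 or 2, 32 and 57 without Rarα-KO replicate 1 or 2, 32 without either Rxrα-KO library, 1 without RARX-DKO replicate 1 and 0 without replicate 2. Against the common control, 407 genes (2.47%) differed from WT (RARX) in Rxrα-KO and 106 (0.645%) in Rarα-KO. The WT (RARX) mean lay between those of the knockouts for 300 of the 360 genes higher in Rxrα-KO and for 446 of the 525 lower ones. Choosing genes for a gap between the knockouts itself favours a WT (RARX) mean within that gap. The share over all tested genes was not computed, so these counts do not show opposite moves from the control. Of the 885 calls, 612 passed against WT (RARX) in neither knockout, 228 in Rxrα-KO only, 44 in Rarα-KO only and 1 in both. RARX-DKO differed from Rarα-KO in 2 genes (0.0122%), Cyp26a1 and Pmp22, both lower in RARX-DKO and named because the count is so small, and from Rxrα-KO in 575 (3.5%).

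**Figure D1:**
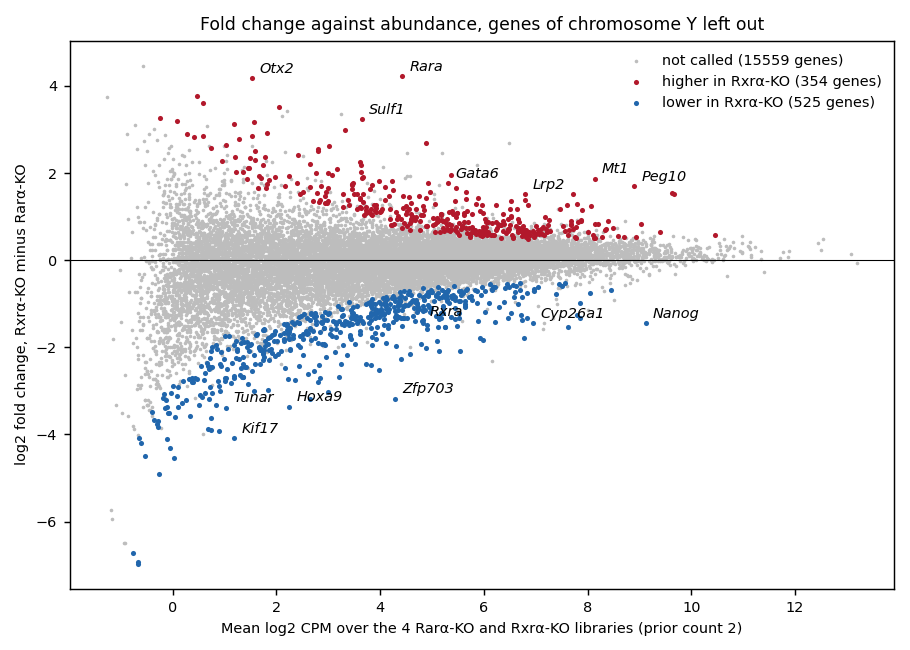
Each point is 1 tested gene, with the mean log2 CPM over the 4 knockout libraries on the x axis and the log2 fold change of Rxrα-KO over Rarα-KO on the y axis. Red genes are called higher in Rxrα-KO (354 after leaving out chromosome Y) and blue genes lower (525), and blue points reach further to the left, among genes of low abundance.

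The direction of the differences moved with abundance. Below a mean log2 CPM of 1 the median log2 fold change was -0.36, with 12 genes higher and 71 lower of 2183. Above 7 it was 0.14, with 56 higher and 12 lower of 1688. The lower number of genes detected in Rxrα-KO at equal depth moves the same way, and its part in the falls of weakly expressed genes was not tested.

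Among the genes highest in Rxrα-KO relative to Rarα-KO, other than Rara itself, were Otx2, Sulf1, Limch1, Gcnt3, Dok2, Has2, Gpx2 and Wt1. Otx2, a homeobox factor of the epiblast and forebrain, led them at 0.856 and 0.327 CPM in Rarα-KO and 7.94 and 14.1 CPM in Rxrα-KO (4.18 ± 0.80, adjusted p = 0.0159), with 1.11 and 1.69 in WT (RARX) and 1.7 and 9.25 in RARX-DKO. Sulf1, which removes sulfate groups from heparan sulfate, was at 4.6 and 3.49 CPM in Rarα-KO, 11.1 and 14.2 in WT (RARX) and 28 and 48.4 in Rxrα-KO (3.23 ± 0.40, adjusted p = 0.00171). Its call stood with each library left out in turn. Has2, which makes hyaluronan, reached 7.16 and 10.9 CPM in Rxrα-KO against 0.856 and 1.53 in Rarα-KO, and Wt1, a zinc-finger factor of kidney and gonad, 4.29 and 6.99 against 0.749 and 0.873. Limch1, Gcnt3, Dok2 and Gpx2 were all more than 2-fold higher in Rxrα-KO replicate 2 than in replicate 1, for example Dok2, an adaptor of tyrosine kinase signalling, at 14.2 and 45.2 CPM against 4.28 and 3.17 in Rarα-KO. Of these 8 genes every one except Sulf1 lost its call without Rarα-KO replicate 2, with adjusted p from 0.0711 for Wt1 to 0.172 for Otx2. Has2 also lost its call when any other library of WT (RARX), Rarα-KO or Rxrα-KO was left out, as did Otx2, Limch1, Gcnt3 and Gpx2 without Rarα-KO replicate 1 or Rxrα-KO replicate 2, Dok2 without Rarα-KO replicate 1 and Wt1 without Rxrα-KO replicate 2, with adjusted p from 0.05 (Dok2) to 0.148 (Has2).

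Among the deepest falls were those of Kif17, Tunar, Hoxa9, Zfp703, Igsf21, Dkk3, Ly6k, Myl7 and Slc13a5. Kif17, a kinesin motor, was at 8.35 and 7.31 CPM in Rarα-KO and 0.651 and 0.254 CPM in Rxrα-KO (-4.08 ± 0.63, adjusted p = 0.00405), with WT (RARX) between them at 1.66 and 3.61. Tunar, a noncoding RNA of pluripotent and neural cells, was at 5.67 and 5.35 CPM in Rarα-KO, 4.33 and 3.53 in WT (RARX) and 0.651 and 0.381 in Rxrα-KO (-3.39 ± 0.50, adjusted p = 0.00352). Igsf21, a synaptic adhesion protein, was at 25.7 and 18.6 CPM against 2.99 and 2.41 (-3.03 ± 0.31, adjusted p = 0.000292). The calls of Kif17, Tunar, Hoxa9, Igsf21, Ly6k and Myl7 (atrial myosin light chain) stood with each library left out. Dkk3 and Slc13a5, a citrate transporter, lost theirs without Rarα-KO replicate 2 (adjusted p = 0.0961 and 0.0673) or without Rxrα-KO replicate 1 (adjusted p = 0.0565 and 0.0504). Slc13a5 stood at 11.1 and 14 CPM in Rarα-KO and 1.56 and 2.16 in Rxrα-KO, close to the 1.66 and 1.15 of WT (RARX).

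The enzymes that clear RA were lower in Rxrα-KO. Of the 3 cytochromes of the CYP26 family 2 were called lower and none higher, and the list's median was -1.45. Cyp26a1, whose promoter is printed above, stood at 526 and 550.3 CPM in WT (RARX), 141 and 279.5 in Rarα-KO, 64.6 and 89.6 in Rxrα-KO and 25.7 and 27.3 in RARX-DKO. The 4 groups kept that order with no overlap, and the knockouts differed by -1.45 ± 0.28 (adjusted p = 0.0204). Cyp26b1 fell from 6.21 and 17.9 CPM in Rarα-KO, already below the 38.6 and 40.2 of WT (RARX), to 1.69 and 1.91 in Rxrα-KO (-2.73 ± 0.48, adjusted p = 0.00921). Cyp26c1 had 4.92 and 8.4 CPM in Rarα-KO and 2.21 and 3.81 in Rxrα-KO and did not pass (-1.14 ± 0.40, adjusted p = 0.111). Both calls were lost without Rarα-KO replicate 2, the library with the higher level of both genes (adjusted p = 0.072 for Cyp26a1 and 0.0546 for Cyp26b1), and without either Rxrα-KO library (adjusted p = 0.113 and 0.0594 for Cyp26a1, 0.0764 and 0.0829 for Cyp26b1). Without RARX-DKO replicate 1 the Cyp26a1 value was at the threshold (adjusted p = 0.0503). In the fit of the 4 compared libraries alone Cyp26a1 also missed it (adjusted p = 0.0659), and Cyp26b1 passed (adjusted p = 0.0356).

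Uptake and binding of retinoids showed the same direction in 2 of 11 tested genes and none higher (median -0.42). Stra6, the membrane receptor for retinol-binding protein, was at 27.2 and 30.7 CPM against 10.7 and 19.3 (-0.95 ± 0.24, adjusted p = 0.04), and its call was lost in 5 of the 8 fits without 1 library, with adjusted p up to 0.253. Among the 12 receptors and coregulators Rara and Rxra themselves were the calls. Rarb, with the DR5 promoter printed above, had 11.4 and 18.8 CPM in Rarα-KO, 6.51 and 10.2 in Rxrα-KO and 15.5 and 16.4 in WT (RARX) (-0.86 ± 0.30, adjusted p = 0.115). Of 10 tested receptors that partner RXR or belong to the COUP-TF family 1 was called, beside 5.38% of all tested genes: Nr1h2, the liver X receptor beta, at 75.9 and 64.4 CPM in Rarα-KO and 105 and 125 in Rxrα-KO (0.72 ± 0.16, adjusted p = 0.0226). Nr1h2 lost its call in 3 of the 8 fits without 1 library, among them that without Rarα-KO replicate 2.

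Of 12 other tested genes known to be induced by RA, 4 were lower in Rxrα-KO, among them Zfp703, Cdx1 and Tgm2, and 1, Meis2, was higher. Zfp703, a zinc-finger corepressor, was at 44.7 and 73.1 CPM in Rarα-KO and at 6.9 and 6.1 CPM in Rxrα-KO (-3.18 ± 0.42, adjusted p = 0.00731). It stood at 84.5 and 86.4 in WT (RARX), and its call was lost without either Rxrα-KO library (adjusted p = 0.0577 and 0.0781). Cdx1, a homeobox activator of Hox genes, was at 118 and 120.1 CPM in Rarα-KO, little below the 126 and 133 of WT (RARX), and at 34.4 and 32.1 in Rxrα-KO (-1.84 ± 0.19, adjusted p = 0.000249), and its call stood with each library left out. Tgm2, tissue transglutaminase, was at 22.9 and 31.2 CPM against 5.99 and 10.9 (-1.67 ± 0.34, adjusted p = 0.0173, 0.148 without Rarα-KO replicate 2 and 0.0816 without Rxrα-KO replicate 1). Meis2, a TALE homeobox cofactor of Hox proteins, went the other way, with 30.1 and 28.3 CPM in Rarα-KO and 53.2 and 49.4 in Rxrα-KO (0.81 ± 0.16, adjusted p = 0.0136). Its call was lost in 3 of the 8 fits without 1 library, among them that without Rarα-KO replicate 2. Across these RA-induced genes the median was 0.05, so the list did not move as a whole.

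**Figure D2:**
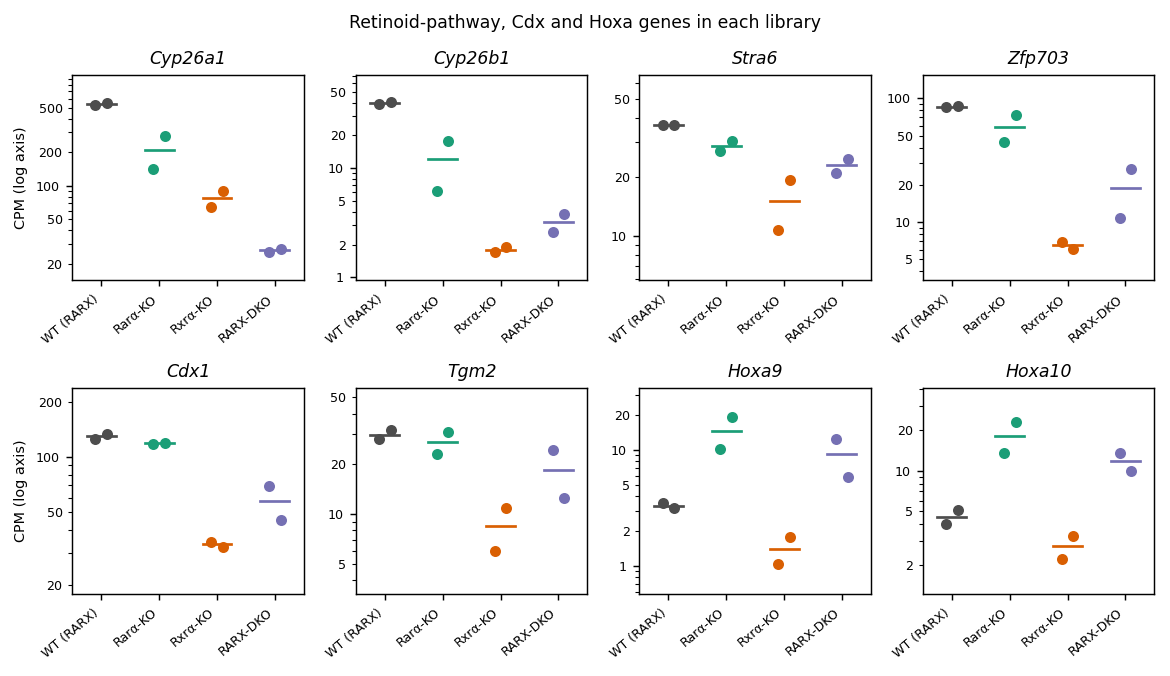
CPM on a log axis in each of the 8 libraries, with 1 point per library and a bar at the mean of the 2, for retinoid, Cdx and Hoxa genes. Cyp26a1, Cyp26b1, Stra6, Zfp703, Cdx1 and Tgm2 are lowest or next to lowest in Rxrα-KO, whereas Hoxa9 and Hoxa10 are above WT (RARX) in Rarα-KO and below it in Rxrα-KO.

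Within the Hoxa cluster on chromosome 6, 5 of 12 tested genes were lower in Rxrα-KO and none was higher, with a median of -1.21. At its posterior end Rarα-KO lay above WT (RARX). Hoxa9 (chromosome 6, 52223100 to 52231089, minus strand) stood at 3.5 and 3.15 CPM in WT (RARX), 10.3 and 19.1 in Rarα-KO, 1.04 and 1.78 in Rxrα-KO and 12.5 and 5.85 in RARX-DKO. Rarα-KO exceeded WT (RARX) by 2.14 ± 0.42 (adjusted p = 0.0382), and the knockouts differed by -3.37 ± 0.48 (adjusted p = 0.00321). Hoxa10 (chromosome 6, 52231197 to 52240854, minus strand) followed the same order, with 4.05 and 5.07 CPM in WT (RARX), 13.5 and 22.7 in Rarα-KO and 2.21 and 3.3 in Rxrα-KO (-2.71 ± 0.36, adjusted p = 0.00201). Hoxa11 was weakly expressed at 2.57 and 4.26 CPM against 0.26 and 0.508 (-3.10 ± 0.77, adjusted p = 0.0344) and lost its call in 6 of the 8 fits without 1 library, with adjusted p up to 0.247. Hoxa9 and Hoxa10 kept theirs in all 8. The 121 tested genes of the surrounding 20 Mb had a median of -0.16, with 2 higher and 8 lower.

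None of the 12 tested Hoxb genes and antisense RNAs and none of 9 Hoxc and Hoxd genes passed edgeR's test, with medians of -0.50 and 0.28. At an unadjusted p under 0.05 there were 2 and 0, and DESeq2 called 0 in both. Hoxb1, a target of RARs in the early neural plate, was at 16.6 and 16.5 CPM in WT (RARX), 3.21 and 2.95 in Rarα-KO and 5.34 and 5.84 in Rxrα-KO (0.86 ± 0.70, adjusted p = 0.529).

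Pluripotency genes did not move in one direction. Of 19 tested genes of the naive state 4 were lower in Rxrα-KO (Nanog, Prdm14, Klf4 and Tcl1) and 2 higher (Gbx2 and Nr0b1), with a median of -0.01. Nanog, a core factor of the naive network, was at 469 and 411 CPM in WT (RARX), 999 and 841 in Rarα-KO, 351 and 325 in Rxrα-KO and 835 and 558 in RARX-DKO. Rarα-KO exceeded WT (RARX) by 1.06 ± 0.18 (adjusted p = 0.022), and the knockouts differed by -1.44 ± 0.18 (adjusted p = 0.00127), a call that stood with each library left out. Prdm14, which restrains FGF signalling and DNA methylation in naive cells, was at 29.96 and 23.6 CPM in Rarα-KO, 9.5 and 11.6 in Rxrα-KO and 9.12 and 9.98 in WT (RARX) (-1.34 ± 0.31, adjusted p = 0.0247), but lost its call in 6 of the 8 fits without 1 library (adjusted p up to 0.124). Klf4 and Tcl1, both picked out after their values were seen, were at 123 and 163 and 36.3 and 20.2 CPM in Rarα-KO and at 45.2 and 68 and 13.1 and 13.6 CPM in Rxrα-KO. Klf4 lost its call without Rarα-KO replicate 2 (adjusted p = 0.144) or Rxrα-KO replicate 1 (adjusted p = 0.0805), and Tcl1 in 5 of those 8 fits (adjusted p up to 0.244). Gbx2, a STAT3 target and homeobox factor, rose from 28.4 and 21.3 CPM in Rarα-KO and 22.2 and 27.3 in WT (RARX) to 81.3 and 76.4 in Rxrα-KO (1.67 ± 0.21, adjusted p = 0.00117), and this call stood throughout, while Nr0b1 (DAX1), named for completing the count, was at 136 and 94.7 CPM against 187 and 195 and lost its call in 5 of the 8 fits (adjusted p up to 0.298). Pou5f1, chosen as the shared core factor, was at 1927 and 1514 CPM against 1885 and 1816 (0.10 ± 0.14, adjusted p = 0.715).

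Genes of the formative and primed epiblast were higher in Rxrα-KO in 6 of 16 tested cases and lower in none (median 0.59), led by Otx2, Sox3 and Grhl2. Sox3, a SOXB1 factor of epiblast and neural progenitors, was at 5.88 and 7.31 CPM in Rarα-KO and 18.1 and 31.5 in Rxrα-KO (1.91 ± 0.29, adjusted p = 0.00391). WT (RARX) was at 19.3 and 19.97, so the difference lay mainly in Rarα-KO, which was below it by -1.57 ± 0.28 (adjusted p = 0.0252). Grhl2, which primes epithelial enhancers in the epiblast, had the opposite arrangement, with 3.59 and 4.45 CPM in WT (RARX), 5.35 and 6.55 in Rarα-KO and 17.8 and 22.9 in Rxrα-KO (1.77 ± 0.29, adjusted p = 0.00533). Pou3f1, Etv5 and Nkx6-3 made up the rest, for example Pou3f1 (OCT6) at 14.3 and 14.3 CPM against 29.7 and 48.8 (1.45 ± 0.25, adjusted p = 0.00767), named after its values were seen. The calls of Sox3 and Grhl2 stood with each library left out, and they were the 2 left without Rarα-KO replicate 2.

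**Figure D3:**
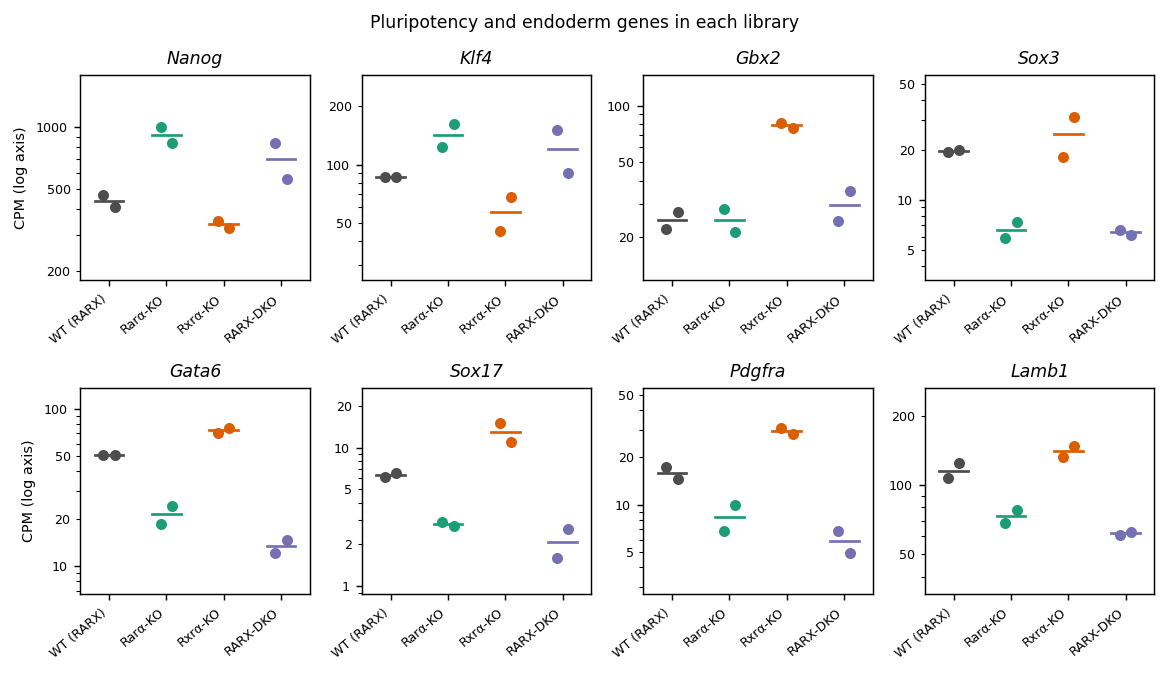
CPM on a log axis in each of the 8 libraries, with 1 point per library and a bar at the mean of the 2, for pluripotency genes (upper row) and endoderm genes (lower row). Nanog is highest in Rarα-KO and lowest in Rxrα-KO, Gbx2 stands out in Rxrα-KO alone, and the endoderm genes are below WT (RARX) in Rarα-KO and RARX-DKO and above it in Rxrα-KO.

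Primitive endoderm factors had the highest median of all lists outside chromosome Y, and all their calls were higher in Rxrα-KO. RA-treated stem cells can form this extraembryonic lineage, which lines the blastocoel and later the yolk sac. Of 8 transcription factors and receptors of the lineage 5 were higher in Rxrα-KO (Foxa2, Sox17, Gata4, Pdgfra and Gata6) and none lower, with a median of 1.79. Gata6, which specifies the lineage, was at 50.7 and 51.1 CPM in WT (RARX), 18.6 and 24 in Rarα-KO, 70.1 and 75.2 in Rxrα-KO and 12 and 14.7 in RARX-DKO (1.77 ± 0.18, adjusted p = 0.000245). Rarα-KO was below WT (RARX) by -1.25 ± 0.17 (adjusted p = 0.00963), and Rxrα-KO differed from it by 0.51 ± 0.17 (adjusted p = 0.135). Sox17 was at 2.89 and 2.73 CPM against 15 and 10.9 (2.2 ± 0.35, adjusted p = 0.00434), and Gata4 at 5.03 and 3.27 CPM against 16.5 and 16 (1.97 ± 0.30, adjusted p = 0.00391). Pdgfra, the receptor that marks the lineage and was picked after its values were seen, was at 6.85 and 9.93 CPM against 30.7 and 28.2 (1.81 ± 0.26, adjusted p = 0.00301). Foxa2 was near the floor, at 0.535 and 0 CPM in Rarα-KO and 2.73 and 2.41 in Rxrα-KO. Without Rarα-KO replicate 2, Gata6 and Pdgfra kept their calls while Sox17 (adjusted p = 0.059), Gata4 (adjusted p = 0.0612) and Foxa2 (adjusted p = 0.261) did not, and Foxa2 also lost its call without any WT (RARX) or Rxrα-KO library. In bulk RNA fewer cells of this type and less of each RNA per cell cannot be told apart.

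Of 7 tested endocytic and surface genes of endoderm 3 were higher (Cubn, Lrp2 and Dab2) and none lower, with a median of 0.36. Amn, the protein that anchors Cubn and named here after its value was seen, was at -1.51 ± 0.56 (adjusted p = 0.14). Lrp2, the megalin receptor of visceral endoderm, was at 89.5 and 113 CPM in WT (RARX), 54.4 and 78.3 in Rarα-KO and 174 and 206 in Rxrα-KO (1.52 ± 0.21, adjusted p = 0.00272). Its partner Cubn was at 3.96 and 2.62 CPM against 14.2 and 12.1, and the adaptor Dab2 at 3.42 and 5.79 against 9.37 and 16.3. The latter pair of calls was lost without Rarα-KO replicate 2 (adjusted p = 0.223 and 0.0961), as in 6 and 5 of the 8 fits in all, while that of Lrp2 was kept in each. Among 12 basement membrane genes the 3 chains of laminin-111 were higher, Lamb1 at 68.6 and 78 CPM against 133 and 147 (0.94 ± 0.14, adjusted p = 0.00391), Lama1 at 44.5 and 52.9 against 86.8 and 92.2 (0.88 ± 0.16, adjusted p = 0.00805) and Lamc1 at 401 and 382 against 625 and 766 (0.83 ± 0.14, adjusted p = 0.00537). Lama1 lost its call without Rarα-KO replicate 1 (adjusted p = 0.0634) and Lamc1 without replicate 2 (adjusted p = 0.0719). Col4a1 and Nid1, other members named after their values were seen, were at 0.53 ± 0.18 (adjusted p = 0.0994) and -0.23 ± 0.20 (adjusted p = 0.546).

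Metallothioneins, small proteins that bind zinc, were higher in Rxrα-KO, and the 7 tested genes of metal handling had a median of 1.43 with none lower. Mt1 was at 130.4 and 136 CPM in WT (RARX), 157 and 137 in Rarα-KO and 491 and 588 in Rxrα-KO (1.87 ± 0.17, adjusted p = 0.000109). Mt2 was at 504 and 451 CPM in Rarα-KO and 1273 and 1478 in Rxrα-KO (1.53 ± 0.19, adjusted p = 0.00171). Both calls stood with each library left out. Slc39a4, an importer of zinc, was the remaining call of this list, at 43.4 and 30.8 CPM against 67.9 and 132 (1.43 ± 0.28, adjusted p = 0.0179, 0.162 without Rarα-KO replicate 2).

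Genes of the antioxidant response driven by NRF2 were higher in 6 of 14 tested cases and lower in none (median 0.74). Nqo1, a quinone reductase, was at 24.3 and 18 CPM in Rarα-KO, 31.4 and 27.2 in WT (RARX) and 72.9 and 90.5 in Rxrα-KO (1.95 ± 0.28, adjusted p = 0.00446). Gpx2, a glutathione peroxidase, was at 0.856 and 1.2 CPM against 3.64 and 11.3, and Slc7a11, the cystine importer, at 2.35 and 2.29 against 6.51 and 11.3. Gclm, Txnrd1 and Srxn1 differed by under 2-fold, for example Txnrd1, thioredoxin reductase, at 282 and 272 CPM against 508 and 426 (0.75 ± 0.13, adjusted p = 0.00805), the latter 3 named after their values were seen. Without Rarα-KO replicate 2 all 6 lost their calls, with adjusted p from 0.0641 (Nqo1) to 0.157 (Slc7a11). Slc7a11, Gpx2 and Srxn1 also lost theirs without Rarα-KO replicate 1, and in 5, 3 and 3 of the 8 fits without 1 library in all.

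Feedback genes of FGF and ERK signalling were higher in 3 of 16 tested cases and lower in none (median 0.56). Spry4, an inhibitor of receptor tyrosine kinase signalling, was at 60.4 and 58.9 CPM in WT (RARX), 68.4 and 48.4 in Rarα-KO, 170.2 and 127 in Rxrα-KO and 72.1 and 123 in RARX-DKO (1.35 ± 0.25, adjusted p = 0.015). The ERK phosphatases Dusp6 and Dusp4 were at 123 and 127 and 13.9 and 15.2 CPM in Rarα-KO and at 262 and 346 and 36.8 and 32.3 CPM in Rxrα-KO (1.28 ± 0.23, adjusted p = 0.0107, and 1.25 ± 0.25, adjusted p = 0.0137). All 3 calls were lost without Rarα-KO replicate 2 (adjusted p = 0.14, 0.104 and 0.104), those of Dusp6 and Dusp4 also without replicate 1 (adjusted p = 0.0633 and 0.0784), those of Spry4 and Dusp4 without Rxrα-KO replicate 1 (adjusted p = 0.0764 and 0.0565), and that of Dusp6 without Rxrα-KO replicate 2 (adjusted p = 0.0556).

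Germline and meiosis genes were lower in 4 of 14 tested cases and higher in none, with a median of -1.02. Piwil2, a PIWI protein that silences transposons, was at 37.3 and 38.9 CPM in WT (RARX), 63.7 and 76.4 in Rarα-KO and 28.4 and 31.9 in Rxrα-KO (-1.22 ± 0.17, adjusted p = 0.00268). It was picked after its values were seen, and it alone of the 4 kept its call without Rarα-KO replicate 2. Smc1b, the meiotic cohesin subunit, was at 25.9 and 23.4 CPM against 10.8 and 5.84 (-1.57 ± 0.28, adjusted p = 0.00836), with 9.03 and 6.53 in WT (RARX). Mov10l1, the helicase partner of PIWI proteins, was at 34.7 and 42 CPM against 14.6 and 17.2, and Tex101, a germ-cell surface protein, at 14 and 22.2 against 3.38 and 4.96. Those 3 lost their calls without that library. Tex101 did so in 6 of the 8 fits without 1 library in all, and Smc1b and Mov10l1 in 2 each. Stra8, the RA-induced gatekeeper of meiosis, was at 419 and 412 CPM in WT (RARX), 276 and 517 in Rarα-KO and 135 and 223 in Rxrα-KO and did not pass (-1.15 ± 0.36, adjusted p = 0.114).

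**Figure D4:**
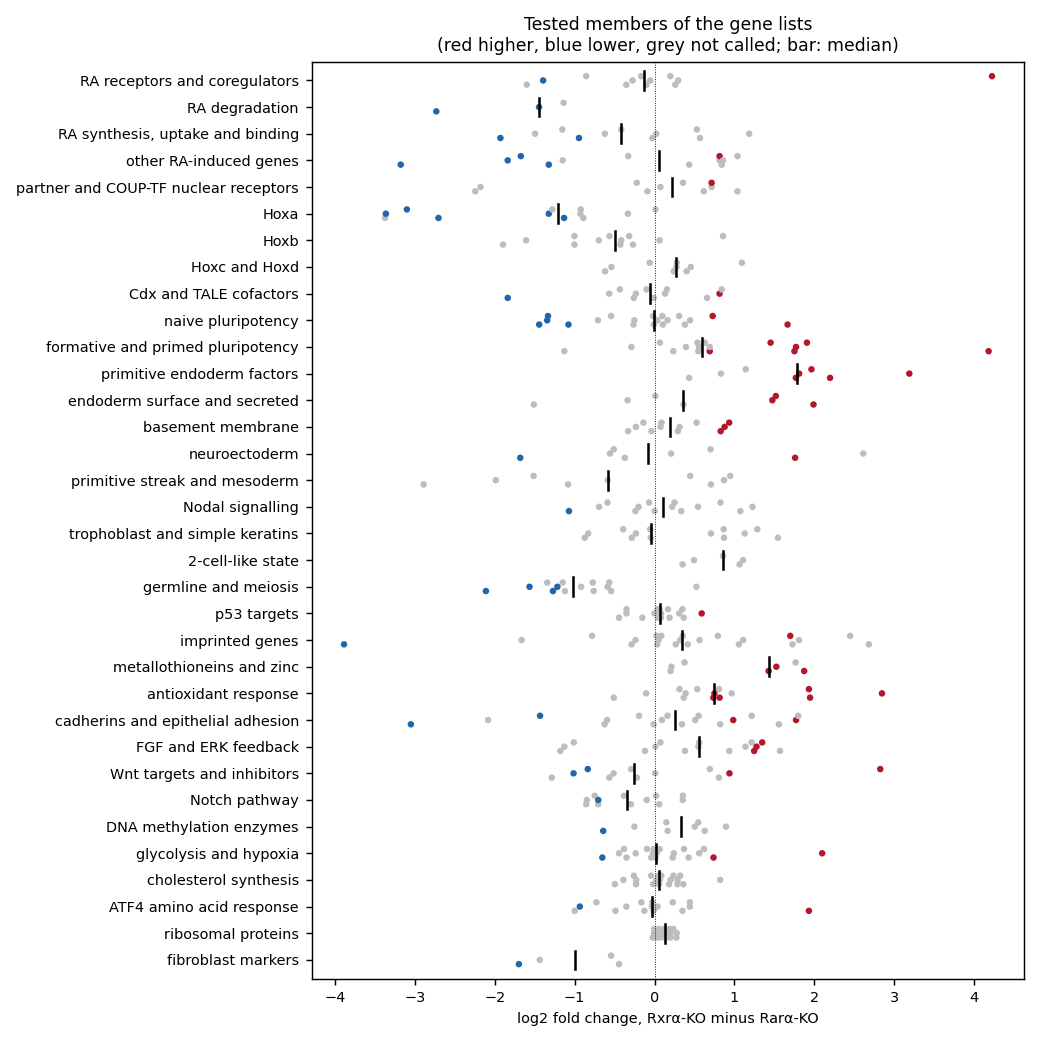
Each point is 1 tested gene of a list outside chromosome Y, with its log2 fold change of Rxrα-KO over Rarα-KO on the x axis, red where called higher, blue where called lower and grey otherwise, and the bar is the list's median. Primitive endoderm factors have the highest median of these lists (1.79), while ribosomal protein genes lie close to 0 with a median of 0.13.

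Single genes of other pathways were called. With 5.38% of all tested genes called, 1 or 2 calls in a list are not read as a result about that list. Among 22 imprinted genes Peg10, a retrotransposon-derived gene of the placenta, was at 279 and 256 CPM in Rarα-KO and 1046 and 691 in Rxrα-KO (1.70 ± 0.33, adjusted p = 0.0292). It lost its call in 4 of the 8 fits without 1 library, among them that without Rarα-KO replicate 2. Peg12, from the Prader-Willi region, was at 6.21 and 5.57 CPM in Rarα-KO, 0 and 0.762 in Rxrα-KO and 1.2 and 0.922 in WT (RARX) (-3.89 ± 0.68, adjusted p = 0.00767). Grb10, an imprinted inhibitor of growth signalling chosen after its values were seen, was far below the 293 and 288 CPM of WT (RARX) in both knockouts, at 53.3 and 64.4 in Rarα-KO and 47.1 and 73.3 in Rxrα-KO (0.03 ± 0.23, adjusted p = 0.952). Inhbb, the activin beta-B chain and the one call among 14 genes of Nodal and activin signalling, was at 32.8 and 36 CPM in WT (RARX), 119.8 and 106 in Rarα-KO and 55.7 and 51.6 in Rxrα-KO (-1.07 ± 0.17, adjusted p = 0.00508). Egln3, a hypoxia-induced prolyl hydroxylase, was at 4.49 and 3.93 CPM against 15.1 and 21.1 (2.1 ± 0.29, adjusted p = 0.00239), and the list of 20 glycolysis and hypoxia genes also held Pdk1 (higher) and Vegfa (lower), whose calls were each lost in 5 of the 8 fits without 1 library (adjusted p = 0.23 and 0.223 without Rarα-KO replicate 2). The calls of Peg12, Inhbb and Egln3 stood with each library left out.

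Adhesion genes split, with 2 of 18 higher (Grhl2 and Epcam) and 2 lower (Cdh3 and Cdh22). Epcam, an epithelial adhesion molecule picked after its values were seen, was at 46.4 and 42.5 CPM in WT (RARX), 67 and 63.6 in Rarα-KO and 109 and 149.7 in Rxrα-KO (0.99 ± 0.16, adjusted p = 0.00566). Cdh3, P-cadherin, was at 24.5 and 17.8 CPM in Rarα-KO against 5.21 and 10.4 in Rxrα-KO and 5.07 and 5.3 in WT (RARX) (-1.43 ± 0.33, adjusted p = 0.0264). Wnt pathway genes split too, with the inhibitors Dkk1 and Axin2 higher and Sfrp2 and the target Ccnd1 lower among 12, such as Dkk1 at 0.321 and 0.437 CPM against 3.25 and 2.29 and Ccnd1, named after its values were seen, at 63.7 and 76 against 33.6 and 44.6. Neuroectoderm genes gave 1 call each way of 8, Sox11 higher (1.76 ± 0.32, adjusted p = 0.00859) and Ncam1 lower (-1.68 ± 0.36, adjusted p = 0.0171). Further single calls, beside 5.38% called of all tested genes, were Notch3 lower of 12 Notch genes, Tet3 lower of 8 DNA methylation enzymes, Mdm2 higher of 17 p53 targets, and of 16 ATF4 targets Slc7a11 higher and Ddit3 lower. Without Rarα-KO replicate 2, Epcam (adjusted p = 0.078), Cdh3 (0.0786), Cdh22 (0.0961), Dkk1 (0.157), Axin2 (0.246), Sfrp2 (0.421), Ccnd1 (0.176), Ncam1 (0.174), Notch3 (0.182), Tet3 (0.374), Mdm2 (0.308) and Ddit3 (0.059) lost their calls. Sox11 lost its call without Rarα-KO replicate 1. Of the 8 fits without 1 library, Tet3 and Mdm2 lost theirs in 6, and Cdh3, Axin2 and Sfrp2 in 5. Cdh22 and Dkk1 did so in 4, and Ccnd1, Ncam1 and Notch3 in 2.

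No call was made by edgeR among 20 cholesterol synthesis genes (median 0.06), 20 ribosomal protein genes (0.13), 9 primitive streak and mesoderm genes (-0.58), 13 trophoblast and keratin genes (-0.05) or 5 genes of the 2-cell-like state (0.86). At an unadjusted p under 0.05 these lists held 2, 1, 4, 5 and 0 genes, and DESeq2 called 1 of them all, Plet1 of the trophoblast list. The summed level of the 10 fibroblast markers was 38.0 and 48.0 CPM in Rarα-KO, 14.4 and 19.9 in Rxrα-KO and 37.1 and 44.5 in WT (RARX), with 6 of the 10 too low to test. Col3a1 and Postn had 0 counts in all 8 libraries, and Col1a2, Lum and Dcn at most 3 in any. Pdgfrb, a receptor also found outside fibroblasts, was the 1 call among the 4 tested, at 26.5 and 32.3 CPM in Rarα-KO and 7.42 and 10.7 in Rxrα-KO (-1.70 ± 0.40, adjusted p = 0.0398). It lost its call in 6 of the 8 fits without 1 library, among them that without Rarα-KO replicate 2. The trophoblast and keratin list summed to 162 and 149 CPM in Rarα-KO and 119 and 214 in Rxrα-KO, and the 2-cell list to 12.7 and 17.6 against 20.2 and 35.4. In the RARX-DKO libraries the 2-cell list summed to 10.8 and 60.6 CPM. The 8 primitive endoderm factors summed to 44.2 and 53.6 CPM in Rarα-KO and 155 and 156 in Rxrα-KO. Whether a share of such cells moved the other lists was not tested.

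Some calls lay in chromosome stretches with a shifted median, in part through 1 library. The end of chromosome 2 (160 to 180 Mb) had a median of -0.45 over 183 tested genes, with 1 higher and 37 lower (20.8% called), and both Rxrα-KO libraries lay below the rest there. This stretch holds Cdh22, at 3.85 and 3.82 CPM in Rarα-KO and 0.781 and 0.127 in Rxrα-KO. On chromosome 14 below 20 Mb, which holds Rarb, the median was -0.56, with a median log2 deviation from the mean of the libraries of -0.19 in Rxrα-KO replicate 1 and -0.33 in replicate 2. On chromosome 12 between 100 and 120 Mb, which holds Tunar and Tcl1, it was -0.24, but the deviation was -0.04 in replicate 1 and -0.40 in replicate 2. On chromosome 6 below 20 Mb, which holds Peg10, it was -0.30 with 1 gene called higher and 0 lower, and the deviation was 0.15 in replicate 1 and -0.71 in replicate 2. Chromosome 16 leaned the other way with 18 genes higher and 2 lower, its median log2 deviation being 0.19 in Rxrα-KO replicate 2 and 0.00 in replicate 1, and Etv5 lies on it. Leaving out all windows of 20 Mb with a median beyond 0.2 in either direction left 814 calls (334 higher, 480 lower), of which 794 were also called with the windows in. The called genes of those windows were themselves removed from this count. The part of these stretches in the calls within them was not tested. Libraries outside the comparison were shifted elsewhere. The median log2 deviation was 0.34 on chromosome 8 in RARX-DKO replicate 2. In the 2 WT (RARX) libraries it was 0.32 and 0.38 on chromosome 2 between 140 and 160 Mb, and -0.46 and -0.49 on chromosome 10 between 40 and 60 Mb. The part of these shifts in the shared spread was not tested either.

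The overexpression libraries, which share no library with the knockouts, gave the comparison for a gain of either receptor, though the gains were unequal, as given below. There 4027 of 16914 tested genes (23.8%) were higher and 3952 (23.4%) lower in Rxrα-OE than in Rarα-OE. Of the genes higher in Rxrα-KO than in Rarα-KO, 348 were tested, and 19.5% of these were higher and 45.1% lower in Rxrα-OE. Of the genes lower in Rxrα-KO, 519 were tested, and 39.9% were higher and 19.1% lower. Among the other genes 23.0% were higher and 24.2% lower. These shares are a description, since genes are not independent replicates.

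Cyp26a1, Cyp26b1 and Cdx1 were opposite in the 2 tables. Cyp26a1 stood at 184 and 186 CPM in V-OE, 529 and 541 in Rarα-OE and 1088 and 1096 in Rxrα-OE (1.03 ± 0.04, adjusted p = 8.1e-30). Cyp26b1 was at 57 and 58.3 CPM in Rarα-OE and 409.7 and 391 in Rxrα-OE (2.80 ± 0.06, adjusted p = 6.0e-32) and Cdx1 at 124 and 139.8 and 364 and 348 (1.43 ± 0.05, adjusted p = 4.0e-29). All 3 were thus lower on loss of Rxra than of Rara and higher in Rxrα-OE than in Rarα-OE. They were also higher in Rarα-OE than in V-OE, with log2 fold changes of 1.53, 1.43 and 0.46 (adjusted p = 1.3e-35, 2.2e-16 and 1.4e-08). Tgm2, also lower in Rxrα-KO than in Rarα-KO, was at 34.8 and 44.2 CPM in Rarα-OE and 37.6 and 37.5 in Rxrα-OE and did not pass (-0.06 ± 0.10, adjusted p = 0.653). Neither did Hoxa9, at 7.44 and 8.33 CPM in Rarα-OE and 6.25 and 8.2 in Rxrα-OE (-0.10 ± 0.21, adjusted p = 0.729). The targeted genes themselves were at 105 and 111 CPM in Rarα-OE against 55.2 and 51 in Rxrα-OE for Rara and at 40.5 and 47.8 against 202 and 204 for Rxra.

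Spry4 and Dusp6 were also reversed, being lower in Rxrα-OE (-2.25 ± 0.10, adjusted p = 5.9e-26, and -1.60 ± 0.06, adjusted p = 1.7e-29). For other genes the difference between the receptors had the same sign in both tables. Nanog was lower in Rxrα-OE too, at 990.2 and 1046 CPM in Rarα-OE and 184 and 189.5 in Rxrα-OE (-2.44 ± 0.04, adjusted p = 6.9e-45), as were Prdm14 (-3.59 ± 0.20, adjusted p = 6.7e-22) and Inhbb (-5.12 ± 0.14, adjusted p = 2.0e-35). V-OE stood at 1226 and 1156 CPM for Nanog, 31.9 and 30.2 for Prdm14 and 173 and 169 for Inhbb. Nanog and Prdm14 thus lay above WT (RARX) in Rarα-KO but below V-OE in Rxrα-OE. By less they were also below V-OE in Rarα-OE, with log2 fold changes of -0.23 (adjusted p = 4.2e-06) and -0.43 (adjusted p = 0.0117). Inhbb lay above WT (RARX) in both knockouts and below V-OE in both overexpression groups. Sox17 was higher in both comparisons, at 24.8 and 31.4 CPM in Rarα-OE and 72.6 and 67.7 in Rxrα-OE (1.33 ± 0.10, adjusted p = 3.0e-17), and so was Sox3 (2.13 ± 0.21, adjusted p = 1.4e-12). Foxa2 (1.58 ± 0.28, adjusted p = 5.5e-06) and Dab2 (0.58 ± 0.11, adjusted p = 1.7e-05) were higher in Rxrα-OE as well. Gata4 (-0.39 ± 0.11, adjusted p = 0.0035), Pdgfra (-0.54 ± 0.10, adjusted p = 1.4e-05), Lrp2 (-0.22 ± 0.06, adjusted p = 0.0029), Lama1, Lamb1 and Lamc1 were lower there, the reverse of the knockouts. So were Pou3f1 (-4.16 ± 0.31, adjusted p = 7.1e-17) and Etv5 (-1.56 ± 0.05, adjusted p = 6.1e-33). Cubn and Grhl2 did not pass. Gata6 was at 108 and 113 CPM against 111 and 110.1 (0.00 ± 0.07, adjusted p = 0.969), both above the 22.6 and 23.7 of V-OE. Gata4, Pdgfra, Lrp2, Lama1, Lamb1 and Lamc1 were likewise above V-OE in both overexpression groups. Their log2 fold changes over V-OE ran from 0.70 (Lamc1) to 3.51 (Gata4) in Rarα-OE and from 0.47 (Lamc1) to 3.12 (Gata4) in Rxrα-OE. Pou3f1 and Etv5 were below V-OE in Rxrα-OE, with log2 fold changes of -4.27 and -1.72.

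**Figure D5:**
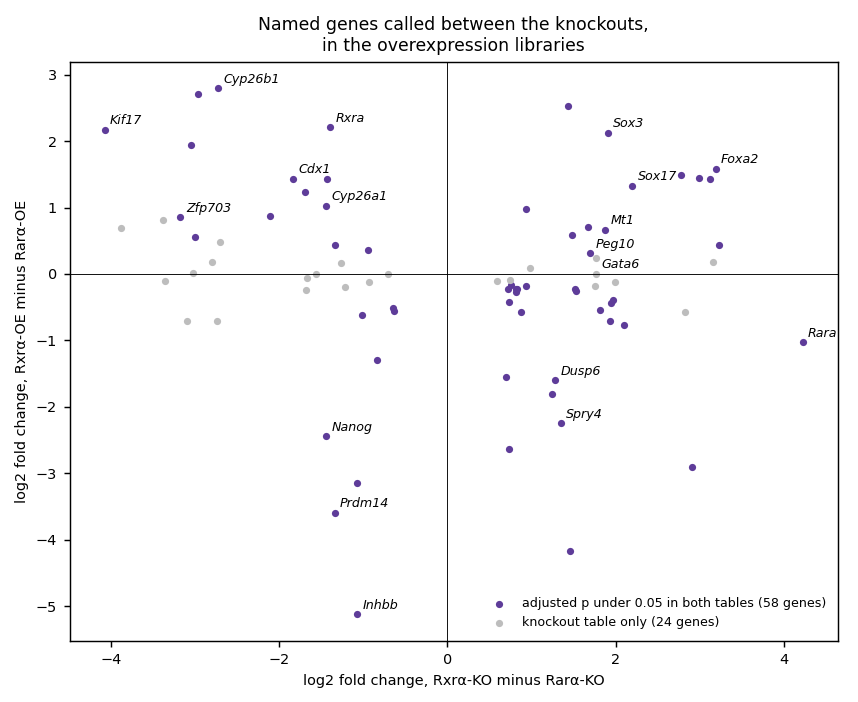
Each point is 1 of 82 named genes called between the knockouts, with its log2 fold change of Rxrα-KO over Rarα-KO on the x axis and that of Rxrα-OE over Rarα-OE on the y axis, violet where it also passed in the overexpression table (58 genes). Cyp26a1, Cyp26b1 and Cdx1 are in the upper left, Nanog, Prdm14 and Inhbb in the lower left and Sox17 and Sox3 in the upper right. Among the violet genes higher in Rxrα-KO, 13 were higher and 23 lower in Rxrα-OE. Of those lower in Rxrα-KO, 14 were higher and 8 lower in Rxrα-OE. Rara is among the 23 and Rxra among the 14, and the position of both is set by the targeting itself.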

How the data were processed

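Total RNA of 4 receptor knockout groups and 3 overexpression groups, 2 libraries each, was sequenced by the authors, who deposited raw read counts per gene. Per the submitters' processing notes mm10, HISAT2 2.1.0 and HTSeq 0.9.1 were among the builds and tools used; use of strand is not given in the sources used here. Columns were matched to samples by title. Names turned into dates (26) and repeated names (2) were kept, and 33 other tables were not used here.

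All 8 knockout libraries entered 1 fit in edgeR 4.0.16 (R 4.3.3), with TMM scaling, a minimum count of 10 in filterByExpr, and glmQLFTest after a robust glmQLFit. Genes were called at a Benjamini-Hochberg adjusted p under 0.05. CPM use the library size after TMM, log2 CPM had a prior count of 2, and a standard error is the size of the log2 fold change divided by the root of F. At 0 counts a floor of 3 counts over the group gave a bound, for counting error only. The overexpression table was fitted alone. Counts of 16445 genes were simulated with 1 mean per gene over the knockout libraries, their sizes and independent noise. Of 100 genes changed 2-fold and 100 changed 4-fold in Rxrα-KO, 46% and 81% were called, beside 10 unchanged genes. The simulation held neither the closeness of Rarα-KO replicate 2 to RARX-DKO replicate 1 nor the shifted chromosome stretches.

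Named were Rara and Rxra, up to 10 of the largest rises and falls (called, not overlapping, mean log2 CPM of 1 or more, off chromosome Y, unnamed gene models passed over), up to 5 Y-linked genes, up to 3 called members of each of 35 lists, Cyp26 genes, Hoxb1, Rarb, Rarg, Nanog and Gata6; a few genes these rules pick are not reported here. Members and lists were chosen with earlier results of these data known, so lists were only counted. Positions are from GENCODE vM21 on mm10. Alternatives were totals-only scaling, no filter, the 4 libraries alone, a replicate block, chromosomes or windows left out, a 2-fold limit, DESeq2 1.42.0 and each library left out; the windows, and leaving out overexpression libraries, were chosen after seeing the data.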

Additional observations from a re-analysis of the deposited data

How the results depend on the processing

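Of 90 named genes that passed, 90 kept their call under DESeq2, 29 with each library left out and 28 under every alternative run, and none changed direction. In the fit of the 4 compared libraries alone 12 lost it (Cyp26a1, Stra6, Foxa2, Dab2, Slc39a4, Cdh3, Sfrp2, Tet3, Vegfa, Tcl1, Nr0b1 and Etv5). The total of 885 calls became 1840 without the filter (771 higher, 1069 lower) and 585 with a 2-fold limit (182 higher), and 333 were lower with only Rarα-KO and Rxrα-KO in the fit; it ranged from 111 to 1391 (39 to 625 higher, 72 to 772 lower) with 1 library left out, where the lone library of a group is assumed to vary like the other groups. Members of the gene lists called (80) numbered 143 without the filter, 46 without chromosomes 2, 6, 8, 10, 16 and Y, and 30 to 117 with 1 library left out. Calls on chromosome 2 (94) numbered 164 without the filter, 47 at 2-fold, 57 without the windows of shifted median, and 8 to 132 with 1 library left out. Of the named genes, 69 passed between the overexpression groups, and 63 to 71 with 1 library left out. Same-numbered libraries of the knockouts deviated together only weakly (correlation 0.12 over genes), so the numbers were not taken to pair them; with the replicate number as a block 737 genes were called (295 higher, 442 lower), 700 of them also without it, and 83 of the 90 named genes passed (not Tex101, Mdm2, Peg10, Sfrp2, Tet3, Vegfa and Pdgfrb). Leaving out chromosomes or windows also removes the called genes on them, so the smaller counts follow in part from that alone. Of 650 calls made without chromosomes 2, 6, 8, 10, 16 and Y, 638 were also called with them in. With 2 libraries a group and 46% of simulated 2-fold changes found, a gene that did not pass is not shown to be equal.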
